A study of Mus musculus with 11 samples.

Results

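The signals described here are 10 secreted or membrane-bound ligands that somatic cells of the testis present to spermatogonia: Gdnf, Kitl, Cxcl12, Fgf2, Bmp4, Inhba, Wnt5a, Csf1, Igf1 and Jag1. They were chosen by name, as 10 of the 33188 genes counted, and all 10 had enough reads to be tested in every comparison. The question was whether these signals changed in the testes where germ cell RNA was low. In the 7 tests run here 0 of the 10 were called different between genotypes, which is no departure from the background: edgeR called 0.0% of all features in 6 of these tests and 0.00443% in the averaged Nrf1 contrast, and 0 of 28 germ cell markers. In that contrast the estimates of 27 of 28 germ cell markers lay below 0 with Nrf1 deleted (median log2 difference -1.04), whereas those of the niche signals lay between -0.14 and 0.31.

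Poly-A RNA was sequenced from whole testes of C57Bl6/J mice at postnatal day 5 (P5), when spermatogonia are the germ cells present. For wild-type (WT) testes 2 libraries were analysed here, and Dnmt3C KO testes (Dnmt3C KO/KO, lacking a DNA methyltransferase of the male germline), Nrf1 cKO testes and double knockout (dKO) testes had 3 each. In Nrf1 cKO mice a floxed Nrf1 allele was deleted in germ cells by Ddx4-Cre (Vasa-Cre) over a second allele that was already a knockout (Nrf1 fl/KO; Ddx4-Cre), and dKO mice carried the same Nrf1 alleles together with Dnmt3C KO/KO. WT and Dnmt3C KO testes, 5 libraries, are called Nrf1 intact below, and Nrf1 cKO and dKO testes, 6 libraries, Nrf1 deleted. Controls were littermates where the breeding allowed. The Cre driver acts in germ cells, so the somatic cells that make these ligands were not its target, but in the described breeding they carry 1 knockout Nrf1 allele. The labels name germ cells and somatic cells as the source, although the sample titles read germ cells only. The study describes whole testes for this experiment, and no cells were sorted.

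Spermatogonial stem cells live in a niche made by Sertoli cells, which line the seminiferous tubule, and by peritubular, Leydig, stromal, endothelial and macrophage cells around it. GDNF acts on the GFRA1 and RET receptors of undifferentiated spermatogonia and holds them in self-renewal, KIT ligand acts on the KIT receptor of differentiating spermatogonia, and CXCL12 attracts CXCR4-bearing stem cells. FGF2, BMP4, activin A (made from Inhba), WNT5A, CSF1, IGF1 and JAG1 add further cues for survival, differentiation, stem cell number and growth.

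The 11 libraries held 26063590 to 39365841 counts each (median 33862160). Neither targeted gene was called lower in its mutant. In counts scaled to library size (CPM, mean ± SD over 2 WT or 3 mutant libraries), Nrf1 was at 57.1 ± 0.829 in WT against 55.4 ± 3.03 in Nrf1 cKO. Dnmt3c was at 4.48 ± 0.51 in WT against 3.81 ± 0.78 in Dnmt3C KO. Counts over a whole gene in whole testis therefore did not check the genotype labels. The marker lists set 3 libraries apart. Nrf1 cKO replicate 3 had the highest Sertoli cell score (mean log2 CPM over 11 markers, 7.13 against 6.12 to 6.57 in the other libraries) and the lowest interstitial stroma score (8.62). The lowest endothelial score (3.33 against 3.95 to 5.09 in the others), macrophage score (3.49 against 4.12 to 4.81) and Leydig, peritubular and red blood cell scores were those of dKO replicate 2. WT replicate 2 had the highest red blood cell score (7.67 against 4.18 to 6.64).

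To show what the promoters of these ligands hold, the 300 bases from 250 before to 50 after the RefSeq start (GRCm38.p6) were read for the 9 members that the table lists, in 10 windows, since Gdnf has 2 starts. Wnt5a was not listed. Each window was searched on both strands for the core of the NRF1 binding motif, GCGCATGC (reverse complement GCATGCGC), and for the TATA box hexamer TATAAA (reverse TTTATA). The motifs were chosen with the results known and their matches are a description. The NRF1 core was in 0 of the 10 member windows, against 2.71% of the 32851 windows of all genes. It was in 5 of the 28 windows of the germ cell list (Dazl, Fkbp6, Mov10l1 and Tdrd9), in 1 of the 24 windows of the receptor list (Cxcr4, the receptor of CXCL12) and in 2 of the 31 windows of the other ligands (Egf and Fgf9). TATAAA was in 3 of the 10 windows, those of Inhba and Kitl and 1 of the 2 of Gdnf, against 13.6% of all windows. The Gdnf window with it, printed below, is that of the upstream start. This start lies upstream of the GENCODE M21 gene start (chr15:7810846). The member windows held a median of 18 CpG dinucleotides, against 7 over all windows. The 200 bases just before the start are printed for the ligands Kitl and Gdnf, with TATAAA in capitals, and for Dazl, an RNA-binding germ cell gene, and the receptor gene Cxcr4, with the NRF1 core in capitals; in Cxcr4 a pair of overlapping matches forms the 10-base run.
Kitl, chr10:100015621-100015820, plus strand: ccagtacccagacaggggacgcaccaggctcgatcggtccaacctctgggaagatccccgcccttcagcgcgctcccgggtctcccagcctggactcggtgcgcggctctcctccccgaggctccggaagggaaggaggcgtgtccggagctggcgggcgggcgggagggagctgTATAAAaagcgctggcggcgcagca
Gdnf, chr15:7809848-7810047, plus strand: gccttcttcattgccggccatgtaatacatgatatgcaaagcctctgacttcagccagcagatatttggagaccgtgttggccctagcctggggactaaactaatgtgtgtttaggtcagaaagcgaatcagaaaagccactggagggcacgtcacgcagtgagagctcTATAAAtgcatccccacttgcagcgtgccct
Dazl, chr17:50293621-50293820, minus strand: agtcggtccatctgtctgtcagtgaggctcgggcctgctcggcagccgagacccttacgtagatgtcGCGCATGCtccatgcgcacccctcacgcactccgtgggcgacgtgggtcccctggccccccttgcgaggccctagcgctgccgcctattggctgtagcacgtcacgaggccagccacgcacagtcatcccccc
Cxcr4, chr1:128592300-128592499, minus strand: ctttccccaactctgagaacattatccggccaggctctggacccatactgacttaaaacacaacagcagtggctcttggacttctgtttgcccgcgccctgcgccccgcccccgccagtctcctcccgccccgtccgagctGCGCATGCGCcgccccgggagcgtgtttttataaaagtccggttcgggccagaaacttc
The TATAAA of Kitl began 25 bases before the start and that of Gdnf 31 bases before it, and the NRF1 core of Dazl began 133 bases before the start.

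The signals differed in level. Per kb of merged exon (GENCODE M21 gene models, GRCm38), Cxcl12 had the highest median over the 11 libraries at 36.4 CPM per kb, followed by Igf1 at 33.4, Kitl at 30.0, Inhba at 25.3, Wnt5a at 15.2 and Gdnf at 8.74. Fgf2 at 5.35, Jag1 at 5.29, Csf1 at 4.70 and Bmp4 at 4.28 CPM per kb were the lowest. Only Gdnf and Fgf2, of the 9 neighbouring pairs in this order, had ranges over the libraries that did not overlap (7.24 to 17.3 against 3.45 to 6.52). The most abundant signals were a chemokine, a growth factor, KIT ligand and the activin A subunit, with GDNF transcripts at an intermediate level.

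**Figure D1:**
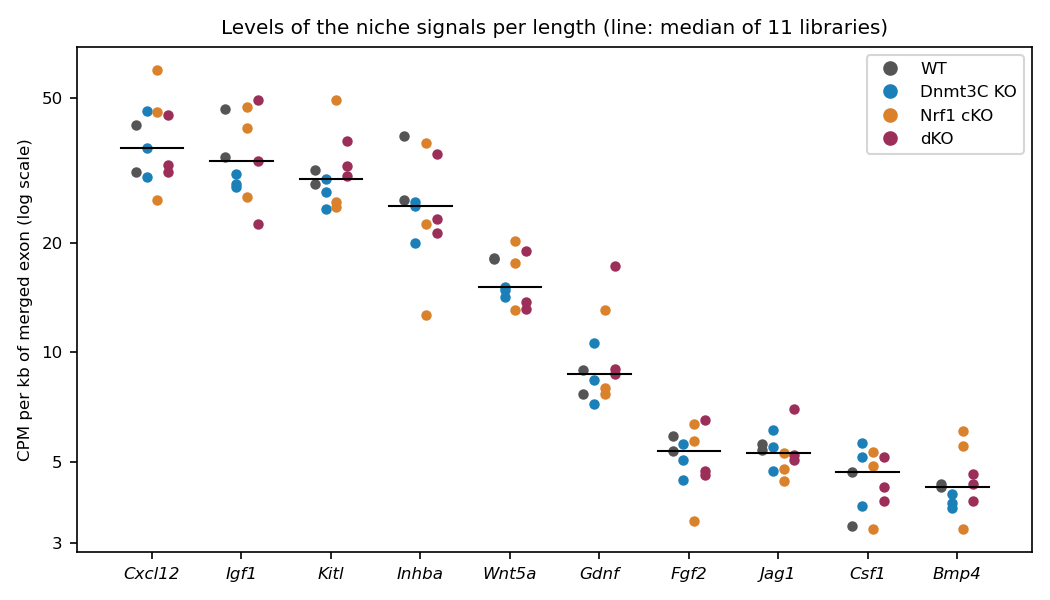
CPM per kb of merged exon (log scale) for the 10 niche signals, ordered by their median over 11 libraries (line); each point is a library, coloured by genotype. The 6 genes from Cxcl12 to Gdnf lie above the 4 genes from Fgf2 to Bmp4.

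Germ cell markers had lower levels with Nrf1 deleted. The germ cell score (mean log2 CPM of 28 markers) averaged 3.87 ± 0.27 over the 2 WT libraries and 4.12 ± 0.44 over the 3 of Dnmt3C KO (mean ± SD). It averaged 2.55 ± 0.60 over the 3 Nrf1 cKO libraries, and 3.23 ± 0.72 over the 3 dKO libraries. The Nrf1 deleted libraries ran from 2.07 to 3.78 and the Nrf1 intact ones from 3.68 to 4.63, with dKO replicate 1 above WT replicate 2. In the contrast that averages Nrf1 cKO over WT and dKO over Dnmt3C KO in one edgeR quasi-likelihood fit of all 11 libraries, the median log2 difference of the 28 markers was -1.04, and 24 of them were lower at an unadjusted p under 0.05, where 4.66% of the 22594 features tested were; 0 passed an adjusted p under 0.01, and the lowest adjusted p of the list was 0.228 (edgeR). In whole testis, fewer germ cells and less RNA per germ cell cannot be told apart.

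In the same contrast 0 of the 10 niche signals were called at an adjusted p under 0.01, against 0.00443% of all features, and 0 were past an unadjusted p of 0.05, against 8.53% (1 was without Nrf1 cKO replicate 1). By the DESeq2 test 0 were called as well, against 0.235% of features. The log2 differences of the 10, Nrf1 deleted minus Nrf1 intact, had a median of 0.05 (0.004 over all features), with 6 above 0 and 4 below. All 10 of their 95% intervals held 0, and all 10 lay within 1 of 0 on the log2 scale, between -0.64 (the lower bound of Inhba) and 0.74 (the upper bound of Gdnf). The estimates of 24 of the 28 germ cell markers lay below the lowest of these bounds.

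**Figure D2:**
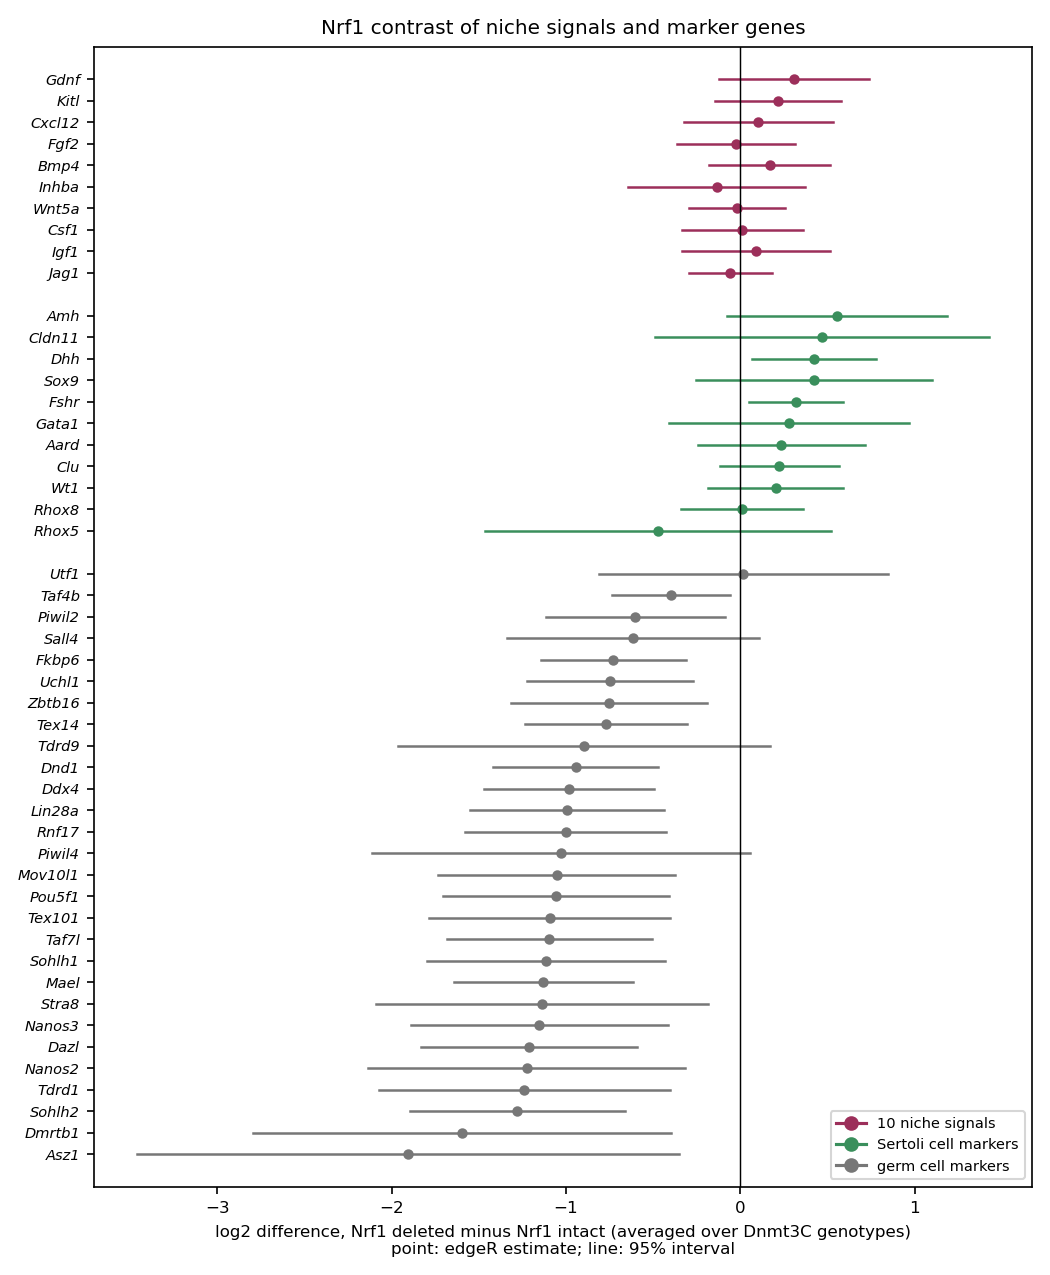
Log2 difference between Nrf1 deleted and Nrf1 intact testes, averaged over the Dnmt3C genotypes, for the 10 niche signals, 11 Sertoli cell markers and 28 germ cell markers; points are edgeR estimates and lines their 95% intervals. All 10 intervals of the niche signals cross 0, while 24 of the 28 germ cell intervals lie below it.

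Gdnf (ENSMUSG00000022144.4, chr15:7810846-7837575) encodes the Sertoli and peritubular factor on which spermatogonial stem cells depend. It was at 32.8 and 28.2 CPM in the WT libraries and at 26.6, 39.05 and 30.9 CPM in Dnmt3C KO. In Nrf1 cKO it was at 29.3, 28.3 and 48.1 CPM, and in dKO at 33.1, 63.5 and 32.1 CPM. One library of each Nrf1-deleted genotype was high, and the other 4 lay within the range of the Nrf1 intact libraries. The averaged log2 difference of Gdnf was 0.31 (SE 0.20, 95% interval -0.12 to 0.74, edgeR adjusted p = 0.68), the largest of the 10, and it was 0.11 without dKO replicate 2, the library with the lowest endothelial, macrophage and Leydig cell scores and the second highest Sertoli cell score (6.57); their part in the result was not tested. The receptors of GDNF had estimates below 0, while 16 of the 23 receptors of all these ligands had estimates above 0: Gfra1 had a log2 difference of -0.49 (95% interval -1.11 to 0.14, edgeR adjusted p = 0.662) and Ret of -0.61 (95% interval -1.47 to 0.25, edgeR adjusted p = 0.683). With single libraries left out, Gfra1 ran from -0.78 (without Nrf1 cKO replicate 1) to -0.36 and Ret from -1.18 (without Nrf1 cKO replicate 1) to -0.40 (without Nrf1 cKO replicate 3). Gfra1 ranged from 14.9 to 30.1 CPM in the Nrf1 intact libraries and from 8.53 to 31.9 CPM in the Nrf1 deleted ones, so both receptors fell short of the threshold and their groups overlapped. By background, Gfra1 was at 26.5 ± 5.1 CPM (mean ± SD) in WT against 13.8 ± 8.0 in Nrf1 cKO. It was at 19.7 ± 4.8 CPM in Dnmt3C KO against 19.3 ± 10.9 in dKO.

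Kitl (ENSMUSG00000019966.18, chr10:100015630-100100416) encodes KIT ligand, made by Sertoli cells. It was at 187 and 172 CPM in WT, at 146.5, 177 and 163 CPM in Dnmt3C KO, at 153, 148 and 291 CPM in Nrf1 cKO and at 180, 192 and 225 CPM in dKO. Nrf1 cKO replicate 3 was the highest of all 11 libraries, and the other Nrf1 cKO libraries lay below both WT libraries. The dKO libraries all lay above the Dnmt3C KO libraries. In that comparison, dKO over Dnmt3C KO, Kitl had a log2 difference of 0.30 (SE 0.13, 95% interval 0.02 to 0.58, unadjusted p = 0.0389, edgeR adjusted p = 0.675), and the adjusted p of the lowest member was between 0.367 and 0.986 over the alternatives. It was the 1 member of 10 past an unadjusted p of 0.05 there, against 7.18% of the 20783 features tested (3.1% were past it and higher), and the 1 whose groups did not overlap, against 13.4%. The count of 1 was 2 without dKO replicate 2, with the replicate block and with no filter on low counts, and it was 0 without Dnmt3C KO replicate 1, without Dnmt3C KO replicate 3, with all 4 genotypes in one fit and when scaled to equal Sertoli cell markers. In Nrf1 cKO over WT the log2 difference of Kitl was 0.12 (95% interval -0.53 to 0.77), and without Nrf1 cKO replicate 3 it was -0.28, in the opposite direction. The same library had the highest Sertoli cell score, and its part in the result was not tested. In the averaged contrast the 95% interval of Kitl held 0, as did those of all 10 members. With single libraries left out, its averaged log2 difference ran from 0.016 (without Nrf1 cKO replicate 3) to 0.30 (without Nrf1 cKO replicate 2). The receptor gene Kit had an averaged log2 difference of -0.13 (95% interval -0.52 to 0.26, edgeR adjusted p = 0.857).

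Bmp4 (ENSMUSG00000021835.15, chr14:46383520-46390669, minus strand), a BMP ligand that promotes differentiation of spermatogonia, was the scarcest member, with 240 to 460 counts per library. It was at 9.82 and 9.63 CPM in WT and at 8.68, 9.22 and 8.42 CPM in Dnmt3C KO. In Nrf1 cKO it was at 7.35, 12.5 and 13.65 CPM, which includes both its lowest and its highest library, and in dKO at 8.81, 10.4 and 9.82 CPM. The averaged log2 difference was 0.17 (SE 0.16, 95% interval -0.18 to 0.51, edgeR adjusted p = 0.778).

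Inhba (ENSMUSG00000041324.14, chr13:16011851-16031621) encodes the subunit of activin A. It was at 168 and 251 CPM in WT, at 127.5, 161 and 165 CPM in Dnmt3C KO, at 240, 144 and 81.0 CPM in Nrf1 cKO and at 136, 148 and 224 CPM in dKO. It had the widest range of the 10 members, 3.1-fold between WT replicate 2 and Nrf1 cKO replicate 3. The averaged log2 difference was -0.14 (SE 0.23, 95% interval -0.64 to 0.37). The Nrf1 estimates in the 2 backgrounds were -0.45 in Nrf1 cKO over WT and 0.17 in dKO over Dnmt3C KO, but the interaction between them (0.62, SE 0.47, unadjusted p = 0.211, edgeR adjusted p = 0.917) was not called; it was the smallest unadjusted p of the 10 members, and 0 of 10 were past 0.05, against 5.55% of features, or 1 of 10 without Nrf1 cKO replicate 1 or without Nrf1 cKO replicate 3. Single libraries moved these values: the Nrf1 cKO over WT estimate was -0.90 without Nrf1 cKO replicate 1, -0.13 without WT replicate 2 and -0.14 without Nrf1 cKO replicate 3, that of dKO over Dnmt3C KO was -0.094 without dKO replicate 3, and the interaction ran from 0.28 (without WT replicate 2) to 1.07 (without Nrf1 cKO replicate 1). The genes for the other activin and inhibin subunits, Inhbb and Inha, which Sertoli cells express, are described with the other ligands below.

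Cxcl12 (ENSMUSG00000061353.11, chr6:117168535-117181367), a chemokine that draws stem cells to the niche, was at 255 and 344 CPM in WT and at 298, 247.5 and 376 CPM in Dnmt3C KO. It was at 487, 374 and 214 CPM in Nrf1 cKO and at 268, 256 and 367 CPM in dKO. The highest and the lowest of the 11 libraries were both Nrf1 cKO. Its averaged log2 difference was 0.10 (95% interval -0.32 to 0.53, edgeR adjusted p = 0.897). That of its receptor gene Cxcr4 was 0.02 (95% interval -0.48 to 0.52) and that of Ackr3, which encodes an atypical receptor of CXCL12, was -0.13 (95% interval -0.47 to 0.20).

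Igf1 (ENSMUSG00000020053.18, chr10:87858265-87937042), a growth factor made by interstitial cells, was at 341 and 461 CPM in WT, at 286, 281 and 305 CPM in Dnmt3C KO, at 467, 409 and 265 CPM in Nrf1 cKO and at 331, 222 and 489 CPM in dKO. The 3 Dnmt3C KO libraries lay close together and below both WT libraries, while the dKO libraries held both the lowest and the highest of the 11. Its averaged log2 difference was 0.09 (95% interval -0.33 to 0.51).

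Wnt5a (ENSMUSG00000021994.15, chr14:28504750-28527448), a non-canonical WNT ligand that supports stem cell survival, was the steadiest member, with 1.54-fold between its highest and its lowest library. It was at 142 and 142 CPM in WT and at 116, 118.5 and 111 CPM in Dnmt3C KO. In Nrf1 cKO it was at 158, 138 and 103 CPM and in dKO at 103, 108 and 148 CPM. Its averaged log2 difference was -0.02 (95% interval -0.30 to 0.25).

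Fgf2 (ENSMUSG00000037225.13, chr3:37348346-37410108), which with GDNF maintains stem cells in culture, was at 36.3 and 39.9 CPM in WT, 30.3 to 38.1 CPM in Dnmt3C KO, 23.4 to 43.1 CPM in Nrf1 cKO and 31.3 to 44.2 CPM in dKO. Csf1 (ENSMUSG00000014599.10, chr3:107741048-107760469, minus strand), the macrophage growth factor, was at 24.8 and 17.7 CPM in WT, 20.04 to 29.8 CPM in Dnmt3C KO, 17.3 to 28.2 CPM in Nrf1 cKO and 20.6 to 27.4 CPM in dKO. All 4 genotypes overlapped for Fgf2 and for Csf1, with averaged log2 differences of -0.03 (95% interval -0.36 to 0.31) and 0.01 (95% interval -0.34 to 0.36). Jag1 (ENSMUSG00000027276.7, chr2:137081456-137116644, minus strand), a NOTCH ligand, was at 32.6 and 31.5 CPM in WT, 27.6 to 35.8 CPM in Dnmt3C KO, 25.9 to 30.8 CPM in Nrf1 cKO and 29.5 to 40.8 CPM in dKO. The Nrf1 cKO libraries lay just below both WT libraries for Jag1, with a log2 difference of -0.20 (95% interval -0.58 to 0.18, edgeR adjusted p = 0.97), and the averaged difference was -0.06 (95% interval -0.30 to 0.18). Jag1 was the 1 member of 10 whose libraries did not overlap in Nrf1 cKO over WT, against 21.6% of the 21296 features tested, and 0 of 10 were called, against 0.0%, or past an unadjusted p of 0.05, against 5.75% (1 was without Nrf1 cKO replicate 1 and 1 with the replicate block).

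**Figure D3:**
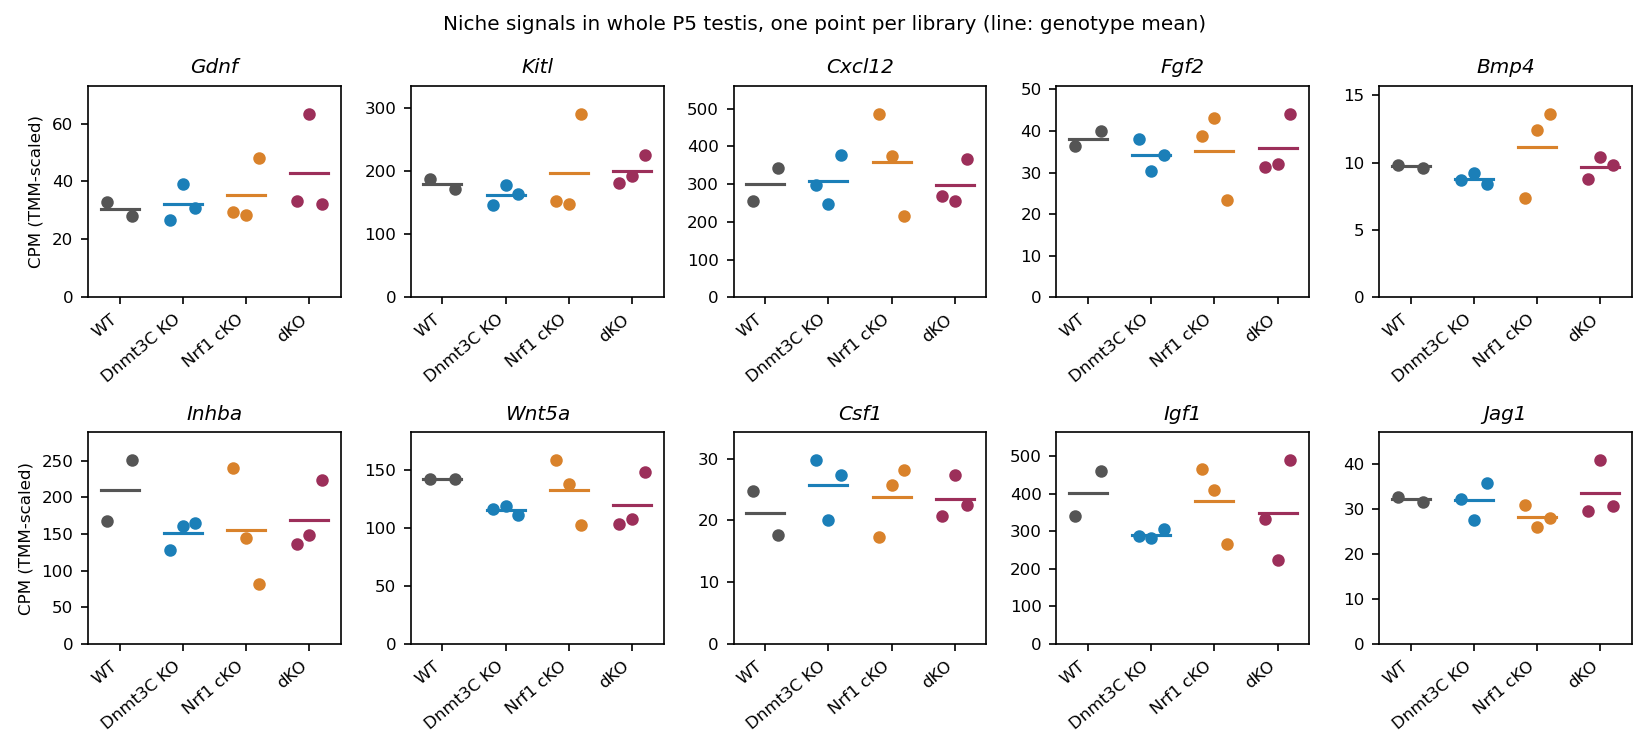
CPM of the 10 niche signals in each library of WT (n = 2), Dnmt3C KO, Nrf1 cKO and dKO (n = 3 each), with vertical axes from 0; lines are genotype means. The Dnmt3C KO libraries lie below both WT libraries for Bmp4, Inhba, Wnt5a and Igf1, as do those of Nrf1 cKO for Jag1, and the dKO libraries lie above those of Dnmt3C KO for Kitl. Single libraries stand out, such as Nrf1 cKO replicate 3 for Kitl at 291 CPM and dKO replicate 2 for Gdnf at 63.5 CPM.

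Loss of Dnmt3C with Nrf1 intact was compared next. In Dnmt3C KO over WT, 3 of the 10 members were past an unadjusted p of 0.05, all lower, against 5.41% of the 21664 features tested (2.86% lower), and 0 were called by edgeR, against 0.0%, or by DESeq2, against 0.111%. These were Igf1, with a log2 difference of -0.48 (SE 0.17, unadjusted p = 0.0187), Inhba, with -0.48 (SE 0.19, unadjusted p = 0.0304), and Wnt5a, with -0.32 (SE 0.14, unadjusted p = 0.0409), each at an edgeR adjusted p of 0.893. The count of 3 was not stable: it was 0 with all 4 genotypes in one fit and without Dnmt3C KO replicate 1, 1 without WT replicate 2, Dnmt3C KO replicate 2 or Dnmt3C KO replicate 3, 2 with the replicate block and with no filter on low counts, and 4 without WT replicate 1. Bmp4 joined them among the 4 members whose groups did not overlap, against 21.2% of features. Of the 10 estimates, 7 lay below 0. WT replicate 2 was the highest Inhba library and the higher WT library for Igf1; without it the log2 differences were -0.15 for Inhba and -0.23 for Igf1, and that of Wnt5a was -0.30. The same WT library had the highest red blood cell score (mean log2 CPM of 6 markers). In the same comparison 6 of 6 red blood cell markers were lower at an unadjusted p under 0.05 (median log2 difference -1.24), 7 of 7 macrophage markers lay above 0 with 2 past that level (median 0.46), 2 of 7 Leydig cell markers were higher at that level, and of the 28 germ cell markers 21 lay above 0 and 4 were higher at that level (median 0.24), where 2.56% of all features were higher at it. The part of these cells in the result was not tested. With Nrf1 deleted, dKO over Nrf1 cKO gave 0 of 10 called, against 0.0%, 0 past an unadjusted p of 0.05, against 2.81%, and 0 without overlap, against 7.45%. The lowest unadjusted p of the 10 there was 0.135, that of Jag1. Without Nrf1 cKO replicate 3 the count past 0.05 was 2 of 10, with a lowest edgeR adjusted p of 0.804.

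Over all 4 genotypes, a test for any difference called 0 of the 10 members, against 0.0%, and 0 were past an unadjusted p of 0.05, against 6.06% (1 was without Nrf1 cKO replicate 1). No member separated the 6 Nrf1 deleted from the 5 Nrf1 intact libraries, which 0.748% of features did.

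Over the 10 members the median SD between replicates was highest in Nrf1 cKO. The SD of log2 CPM between its 3 libraries had a median of 0.45 over the 10 members (0.28 over all 22594 features tested), against 0.18 in Dnmt3C KO (0.21 over all features), 0.28 in dKO (0.25) and 0.12 between the 2 WT libraries (0.24). Nrf1 cKO replicate 3 was the lowest of the 11 libraries for 4 members, Cxcl12, Fgf2, Inhba and Wnt5a, and the highest for 2, Kitl and Bmp4.

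Some members rose and fell together from library to library. Profiles over the 11 libraries, each scaled to mean 0 and SD 1, were compared by their root mean square (RMS) difference, as a description. For likeness to marker scores and to single genes over the 11 libraries, the SD was divided by the number of libraries. For pairs of members, and for all values without Nrf1 cKO replicate 3, it was divided by 1 less. RMS values on these scales differ slightly, so only their order within the same scale can be compared. The 10 closest of the 45 pairs were all the pairs among Cxcl12, Fgf2, Inhba, Wnt5a and Igf1, from 0.525 (Wnt5a and Igf1) to 0.755 (Cxcl12 and Wnt5a), and the next was Gdnf and Kitl at 0.854. Without Nrf1 cKO replicate 3 this order changed: Fgf2 and Inhba were at 0.982, behind Gdnf and Jag1 (0.869) and Gdnf and Kitl (0.972). Against the marker scores, Fgf2, Inhba, Wnt5a and Igf1 were closest to interstitial stroma (RMS difference 0.548 to 0.869), Cxcl12 to Leydig cells (0.648) and then stroma (0.774), Gdnf, Kitl and Bmp4 to Sertoli cells (0.673 to 0.817), Csf1 to peritubular cells (0.955) and Jag1 to germ cells (1.03). Without Nrf1 cKO replicate 3, a setting chosen after seeing the data, Gdnf (0.597) and Kitl (1.12) were still closest to Sertoli cells and Fgf2, Inhba and Wnt5a to interstitial stroma, while Bmp4 was closest to red blood cells (1.02) and Cxcl12 and Igf1 to endothelial cells (0.659 and 0.699). All genes of a library share its depth and tissue composition, which differ between libraries, so a like profile does not place a transcript in a cell type.

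**Figure D4:**
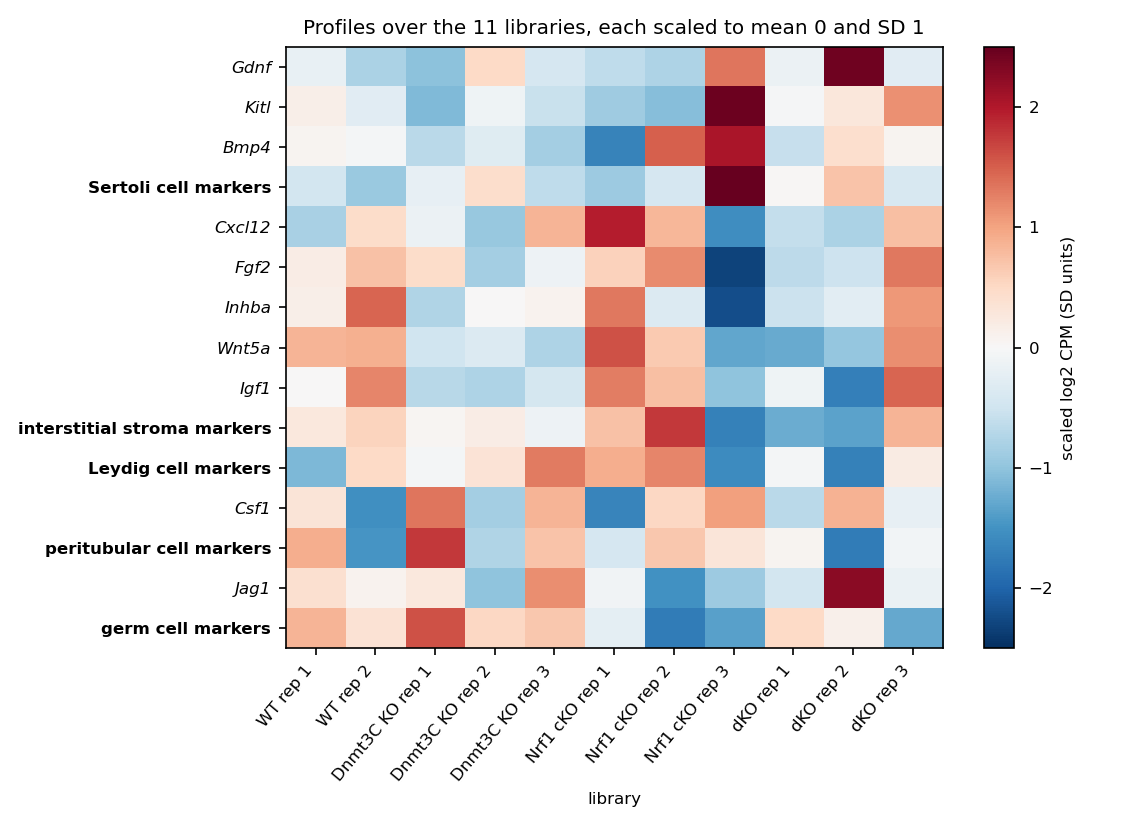
Log2 CPM of each niche signal (italic) and mean log2 CPM of marker lists (bold) in the 11 libraries, each row scaled to mean 0 and SD 1. Gdnf, Kitl and Bmp4 are high with the Sertoli cell markers in Nrf1 cKO replicate 3, where Cxcl12, Fgf2, Inhba, Wnt5a and Igf1 are low with the interstitial stroma markers.

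Of all tested genes, the profile most like Igf1 was that of Nlgn1 (RMS difference 0.205), then Prlr and Pkia. Those most like Wnt5a were Bean1 (0.237), Kcnd2 and Plk2, and those most like Inhba were Flrt3 (0.346), AW551984 and Slc38a4. Cxcl12 was followed most closely by Msn (0.363), Rhoj and Cyp11a1, the last a steroidogenic Leydig cell enzyme and 1 of the 7 Leydig markers. Kitl was most like Mboat2 and Gphn (0.245 each) and Appbp2, and Gdnf most like Tgif1 (0.297), Pced1b and Kmt5a. Fgf2 was most like Phf24 (0.382), Gm12958 and Rab39b, Jag1 most like Bora (0.423), Csf1 most like Anxa9 (0.437), Gm25266 and Cd14, and Bmp4 most like Cngb1 (0.439), Mir7658 and Tent5a.

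The wider signalling system of the niche was described by list in the averaged Nrf1 contrast. Of 23 receptors for these ligands, 0 were called, 1 was higher at an unadjusted p under 0.05 (3.87% of features were) and 0 were lower (4.66% were), with a median log2 difference of 0.03. The 1 was Bmpr2, a type II BMP receptor, with a log2 difference of 0.28 (95% interval 0.04 to 0.52, edgeR adjusted p = 0.535). Of 28 other ligands 27 were tested, 0 were called, 4 were higher at that level and 0 lower, with a median of 0.20. The 4 were Inhbb (0.57, unadjusted p = 0.0111) and Inha (0.38), whose products pair in inhibin B from Sertoli cells, Wnt6 (0.30) and the NOTCH ligand Dll4 (0.68), with edgeR adjusted p from 0.484 to 0.577. Dll4 differed between the backgrounds. It was at 6.4 ± 2.2 CPM (mean ± SD) in Nrf1 cKO against 2.6 ± 0.3 in WT, but at 3.3 ± 1.4 in dKO against 3.1 ± 1.3 in Dnmt3C KO. Of 16 antagonists and binding proteins 15 were tested, 0 were called and 1 was higher, the activin-binding protein Fstl3 (0.35, edgeR adjusted p = 0.574; 0.18 without WT replicate 2 and 0.58 without WT replicate 1), with a median of 0.02. In the interaction 5 of these 15 were past that level, 4 lower and 1 higher, against 5.55% of features. In Dnmt3C KO over WT 4 were higher and 0 lower at it, against 5.41% in either direction. In dKO over Dnmt3C KO 3 were lower and 1 higher, against 7.18%. In each of these comparisons 0 were called. Of 15 target genes of these pathways 0 were called and 0 were past that level, with a median of 0.09. The genes named in this paragraph were chosen after their values were seen.

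The other marker lists had medians nearer 0 than that of the germ cell list in the averaged Nrf1 contrast. Of 11 Sertoli cell markers 10 had estimates above 0, with a median of 0.28, and 2 were higher at an unadjusted p under 0.05. The medians were 0.08 for 7 Leydig cell markers, -0.17 for 6 peritubular cell markers, -0.07 for 6 interstitial stroma markers, 0.20 for 7 endothelial markers, all 7 above 0, and -0.10 for 7 macrophage markers, with 0 past that level in each of these lists. In Nrf1 cKO over WT alone 3 of the 7 endothelial markers were higher at that level (median 0.51), where 1.53% of all features were; Dll4, also made by endothelial cells, was highest in Nrf1 cKO replicates 1 and 2 (6.61 and 8.40 CPM), as was the endothelial score (5.09 and 4.99). The averages join estimates of opposite sign for some lists, although edgeR called 0 of these markers in the interaction. There 1 Leydig cell, 1 macrophage and 1 red blood cell marker were past an unadjusted p of 0.05, against 5.55% of features. Leydig cell markers had medians of 0.202 in Nrf1 cKO over WT and -0.277 in dKO over Dnmt3C KO. Macrophage markers had 7 of 7 above 0 in Nrf1 cKO over WT (median 0.245) and 7 of 7 below 0 in dKO over Dnmt3C KO (median -0.487), endothelial markers had a median of -0.115 in the latter, and the Sertoli cell medians were 0.489 and 0.054. In the averaged contrast the 6 red blood cell markers had a median of -0.61, all 6 lay below 0, and 1 was lower at that level. Scaling the libraries to equal Sertoli cell markers put the median of all features at -0.161 (0.004 before), so that small differences crossed 0 with this common shift. Under it the averaged log2 differences of the members ranged from -0.23 (Jag1) to 0.09 (Gdnf), and 0 were called. The part of cell composition in these values was not tested.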

How the data were processed

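Whole-testis poly-A RNA was measured in 11 libraries, whose genotypes come from the labels. The study describes more WT replicates than the 2 analysed here, and its methods left out replicates of low RNA quality. The authors aligned reads with STAR 2.7.3a to GRCm38, counted them on genes and transposable element (TE) subfamilies with TEtranscripts (multi-mapped reads shared, strand used) and deposited whole-number counts, without normalization, of each pair of genotypes; reads of a gene are summed over its isoforms. The same tables hold the authors' DESeq2 1.44.0 comparison (mean normalized counts, fold changes and p-values), which was not used, and a table of TPM for TE copies was not used either. A library's counts did not differ between tables (0 differences), which together gave 33188 genes and 1088 TE subfamilies. The 11 totals were 26063590 to 39365841, and counts are of reads, so depth sets counting error only.

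Genotypes were tested with edgeR 4.0.16 under R 4.3.3 (filterByExpr, TMM, quasi-likelihood F test; Benjamini-Hochberg adjustment over all genes and TE subfamilies; threshold 0.01): pairs of genotypes were fitted on their own libraries, and the averaged Nrf1 contrast, the test of any difference and the interaction on all 11. Log2 CPM use a prior count of 1, intervals are 95% intervals of the fit, and Python 3.11.15 was used for profiles. The fits were tested on simulated data. Alternatives were DESeq2 size factors, the DESeq2 1.42.0 test, no filter, the replicate number as a block, a threshold of 0.05, omitting 1 library at a time, genes only, scaling to equal Sertoli cell markers, and all 4 genotypes in one fit; profiles without Nrf1 cKO replicate 3 were added after seeing the data. No library was a copy of another of its genotype: chi-square per degree of freedom between the replicates of a genotype was 19.48 to 69.21, above sampling noise. The labels do not tie each library to 1 animal, so p-values measure the spread between these libraries.

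The members and the lists of receptors, ligands, binding proteins, targets and markers were chosen with earlier results of these data known. By the naming rule all 10 members were named, receptors could be named beside their ligand (Gfra1, Ret, Kit, Cxcr4 and Ackr3), other receptors, ligands, binding proteins and targets at an unadjusted p under 0.01 in the averaged contrast or when called (none qualified; Bmpr2, Inhbb, Inha, Wnt6, Dll4 and Fstl3 fall outside this rule and were named after their values were seen), and the 3 genes with the most alike profile for each member (for Jag1 only the first is reported here). Lengths and coordinates are from GENCODE M21, while the authors used a later release, and promoters from RefSeq on GRCm38.p6. Red blood cell markers and germ cell markers were scored like the other lists.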

Additional observations from a re-analysis of the deposited data

How the results depend on the processing

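Under every alternative run, 0 of the 10 niche signals were called in each of the 7 tests, although the number of all features called varied from 0 to 138 in Nrf1 cKO over WT (most without the filter), 0 to 17 in dKO over Dnmt3C KO, 0 to 158 in Dnmt3C KO over WT, 0 to 11 in dKO over Nrf1 cKO, 0 to 53 in the averaged Nrf1 contrast, 0 to 127 in the test of any difference and 0 to 1 in the interaction. The lowest adjusted p of any member was 0.208, in Dnmt3C KO over WT without WT replicate 1. The germ cell markers lower at an unadjusted p under 0.05 in the averaged contrast numbered 17 (without WT replicate 1) to 27. Of the 609 repeated log2 differences of single genes, 553 kept their direction and 56 reversed; none was called, and the cause was not tested.

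With the replicate number as a block, the log2 difference in Nrf1 cKO over WT reversed for Gdnf (-0.097), Kitl (-0.27), Fgf2 (0.086), Bmp4 (-0.039), Wnt5a (0.038), Csf1 (-0.0079) and Igf1 (0.12), and in the averaged contrast for Csf1 (-0.011). Same-numbered libraries did not deviate together (correlations from -0.234 to 0.216), so the numbers were not taken to pair the testes. The numbers are those of the sample titles. The data columns of the libraries numbered 3 carry 4 in Dnmt3C KO and 5 in dKO. The block at 3 therefore joins libraries that the columns number differently. WT had no replicate 3, so in Nrf1 cKO over WT and Dnmt3C KO over WT this block held only the mutant library. That library then had no part in the blocked estimate. Without Nrf1 cKO replicate 3 and with no block, Nrf1 cKO over WT gave -0.10 for Gdnf, -0.28 for Kitl and 0.0081 for Bmp4. The replicate block called 87 features in Nrf1 cKO over WT and 131 in Dnmt3C KO over WT, against 0 without it. Both counts were thus reached with replicate 3 of the mutant set aside. The block called 0 members in any test.

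Scaling to equal Sertoli cell markers moved the median of all features to -0.24 in Nrf1 cKO over WT, -0.053 in dKO over Dnmt3C KO and -0.161 in the averaged contrast; with this common shift the sign reversed in Nrf1 cKO over WT for Gdnf (-0.15), Kitl (-0.26), Bmp4 (-0.14) and Csf1 (-0.15), in dKO over Dnmt3C KO for Jag1 (-0.018), and in the averaged contrast for Kitl (-0.0082), Cxcl12 (-0.0079), Bmp4 (-0.031), Csf1 (-0.19) and Igf1 (-0.020).

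Leaving out single libraries reversed the sign of further members. In Nrf1 cKO over WT the ranges were -0.10 to 0.33 for Gdnf, -0.28 to 0.29 for Kitl, -0.038 to 0.51 for Cxcl12, -0.31 to 0.086 for Fgf2, -0.255 to 0.039 for Wnt5a, -0.082 to 0.44 for Csf1 and -0.27 to 0.14 for Igf1. In dKO over Dnmt3C KO they were -0.23 to 0.13 for Cxcl12, -0.11 to 0.17 for Fgf2, -0.094 to 0.29 for Inhba, -0.13 to 0.15 for Wnt5a, -0.29 to 0.0047 for Csf1, -0.075 to 0.49 for Igf1 and -0.090 to 0.17 for Jag1. In the averaged contrast they were -0.035 to 0.23 for Cxcl12, -0.12 to 0.081 for Fgf2, -0.36 to 0.023 for Inhba, -0.12 to 0.053 for Wnt5a, -0.098 to 0.15 for Csf1 and -0.081 to 0.20 for Igf1. Gdnf (0.11 to 0.39), Kitl (0.016 to 0.30), Bmp4 (0.080 to 0.28) and Jag1 (-0.14 to -0.011) kept their sign there. WT had 2 libraries, so leaving 1 out assumes that the other varies like the mutants.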
